A study of Homo sapiens with 8 samples.

Results

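Ribosomal protein pseudogenes are copies of ribosomal protein genes that carry the parent's name followed by P and a number. They were taken by symbol (RPL or RPS, the number and letter of the parent, P and a number), at a mean normalized count of 10 or more over the 8 libraries, and the parent was the symbol before the last P. Of 1495 genes with such a symbol among the 58884 in the table, 148 reached this level, and 630 were listed at 0 in every library. The 148 pseudogenes had 54 parents, 17 of them with 1 pseudogene, 37 with more, and RPL7A with the most, 11. By protein type, 106 were copies of large subunit genes and 42 of small subunit genes. The cells were C4-2, an established castration-resistant prostate cancer line derived from LNCaP. They were kept in RPMI medium with serum, and poly(A)-selected RNA was sequenced after 48 h with 1 µM DTHIB (also called E12), labelled as a direct inhibitor of the heat shock factor HSF1, or with DMSO, its solvent. Each group had 4 libraries of this 1 line, and the labels do not say whether they were separate cultures, so the p-values measure the spread between these libraries, which may be technical.

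A processed pseudogene arises when an mRNA is copied back into DNA by the machinery of LINE-1 elements and inserted elsewhere in the genome. It lacks the introns and usually the promoter of its parent, and it gathers mutations with age. Ribosomal protein mRNAs are short, abundant and present in every cell, and their genes have given rise to one of the largest families of processed pseudogenes in the human genome. The parents encode the proteins of the cytosolic ribosome, whose mRNAs mostly begin with a terminal oligopyrimidine motif. Because many copies are still nearly identical to the coding mRNA, a short read can match the parent and several copies equally well.

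Counted reads per library numbered 29499458 to 30926053 under DMSO and 27229291 to 29159387 under DTHIB. All 9 luminal prostate markers were well detected. Of these 6 rose, among them KLK3 (prostate-specific antigen) with a mean normalized count of 66680.0 in DMSO and 93750.0 in DTHIB, and 3 fell: HOXB13 (log2 fold change -0.22), KRT8 (-0.35) and KRT18 (-0.11). Of the blood markers 2 of 7 reached the level for testing, with the summed list at 24.0 to 33.5 in DMSO and 17.0 to 32.0 in DTHIB and HBB at 0, and of the stroma and vessel markers 2 of 6, COL1A1 and VWF, with the summed list at 1069.9 to 1149 and 1379 to 1569. Summed reads over 404 olfactory receptor genes, a measure of reads outside expressed genes, were 210.4 to 221 normalized counts in DMSO and 214, 293, 246 and 239 in DTHIB, so DTHIB replicate 2 stood highest; their part in the results was not tested. In bulk RNA, fewer cells of a type and less RNA per cell cannot be told apart.

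How far a pseudogene's reads can be separated from those of its parent depends on their sequences. The first 120 coding bases of each parent are shown with the matching stretch of a pseudogene, from the GENCODE release 29 transcripts on GRCh38, 5′ to 3′ on the strand of the transcript, with capitals where the bases differ or where only one of the pair has a base; for RPL39P16 the alignment begins at the second base. The first set was chosen to show copies that short reads hardly separate. RPS28P7 (chr11:82689559-82689768, plus strand) had no difference from RPS28 (chr19:8321158-8323340, plus strand), and a single line stands for both. RPS2P5 (chr12:118246084-118246962, plus strand) lies in an intron of TAOK3 on the opposite strand and is set against RPS2 (chr16:1962052-1964860, minus strand), and RPL17P6 (chr1:77129114-77129668, plus strand) lies in an intron of PIGK on the opposite strand and is set against RPL17 (chr18:49488453-49492523, minus strand).
RPS28P7 and RPS28: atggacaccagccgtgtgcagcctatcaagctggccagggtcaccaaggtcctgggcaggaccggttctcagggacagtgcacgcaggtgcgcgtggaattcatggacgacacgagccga
RPS2P5: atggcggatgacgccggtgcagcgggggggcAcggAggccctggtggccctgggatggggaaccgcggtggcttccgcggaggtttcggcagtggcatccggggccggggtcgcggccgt
RPS2: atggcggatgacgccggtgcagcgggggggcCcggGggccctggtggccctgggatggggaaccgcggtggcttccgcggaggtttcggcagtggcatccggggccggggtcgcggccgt
RPL17P6: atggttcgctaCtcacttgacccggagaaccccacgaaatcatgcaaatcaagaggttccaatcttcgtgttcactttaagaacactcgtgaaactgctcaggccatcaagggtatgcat
RPL17: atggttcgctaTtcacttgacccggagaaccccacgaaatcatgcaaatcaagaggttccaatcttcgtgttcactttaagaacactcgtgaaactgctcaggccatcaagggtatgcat

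The second set was chosen to show diverged copies, whose fold changes departed from those of their parents. RPL17P6 of the first set also departed from its parent, as described below. RPL22P2 (chr14:76886377-76886750, minus strand) and RPL23P2 (chr21:28997613-28998033, minus strand) overlap no annotated gene. RPL39P16 (chr2:108878308-108878460, plus strand) lies in an intron of CCDC138 on the same strand. RPL26P30 (chr11:2335135-2347685, minus strand) is annotated as transcribed and lies in an intron of CD81-AS1. RPL26 is its parent by symbol, and whether it arose from another gene was not tested. RPL32P3 (chr3:129382922-129399655, minus strand) is a transcribed unprocessed pseudogene, a copy made at the DNA level, with 4504 exonic bases and the small nucleolar RNA SNORA7B in an intron. The parents are RPL22 (chr1:6185020-6209389, minus strand), RPL23 (chr17:38847865-38853843, minus strand), RPL39 (chrX:119786504-119791643, minus strand), RPL26 (chr17:8377516-8383250, minus strand) and RPL32 (chr3:12834485-12841588, minus strand).
RPL22P2: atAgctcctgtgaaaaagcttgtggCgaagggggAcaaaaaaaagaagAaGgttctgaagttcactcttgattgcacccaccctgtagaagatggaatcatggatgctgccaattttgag
RPL22: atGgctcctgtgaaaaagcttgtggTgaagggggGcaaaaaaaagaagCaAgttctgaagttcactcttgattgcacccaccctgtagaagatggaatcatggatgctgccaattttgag
RPL23P2: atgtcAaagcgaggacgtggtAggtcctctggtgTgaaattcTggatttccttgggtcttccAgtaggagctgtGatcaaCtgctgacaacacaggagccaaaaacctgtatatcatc
RPL23: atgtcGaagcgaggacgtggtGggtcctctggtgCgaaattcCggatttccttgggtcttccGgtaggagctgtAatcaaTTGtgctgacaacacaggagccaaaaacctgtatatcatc
RPL39P16: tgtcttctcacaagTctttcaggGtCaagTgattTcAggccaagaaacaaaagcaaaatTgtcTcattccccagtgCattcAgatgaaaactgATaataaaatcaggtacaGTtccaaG
RPL39: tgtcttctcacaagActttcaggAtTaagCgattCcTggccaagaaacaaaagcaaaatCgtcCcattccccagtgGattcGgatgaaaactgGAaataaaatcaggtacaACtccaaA
RPL26P30: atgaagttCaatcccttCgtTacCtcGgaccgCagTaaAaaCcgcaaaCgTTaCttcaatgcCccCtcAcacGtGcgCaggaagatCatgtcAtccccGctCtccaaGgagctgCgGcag
RPL26: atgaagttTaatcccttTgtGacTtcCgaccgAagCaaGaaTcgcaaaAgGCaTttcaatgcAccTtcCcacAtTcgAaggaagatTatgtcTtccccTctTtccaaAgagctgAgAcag
RPL32P3: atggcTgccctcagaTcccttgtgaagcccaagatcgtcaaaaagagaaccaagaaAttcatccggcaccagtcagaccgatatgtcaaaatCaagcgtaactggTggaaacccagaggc
RPL32: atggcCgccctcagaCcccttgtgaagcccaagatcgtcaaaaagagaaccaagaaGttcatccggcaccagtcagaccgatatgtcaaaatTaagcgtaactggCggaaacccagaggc

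In these stretches RPS2P5 carried 2 substitutions and RPL17P6 carried 1, against 5 in RPL22P2, 7 in RPL23P2 with 2 bases missing, 15 in RPL39P16, 26 in RPL26P30 and 5 in RPL32P3. Over the whole alignment to a parent transcript, identity of aligned bases had a median of 97% among the 148 pseudogenes. Windows of 50 bases give another measure. A median of 25.6% of a pseudogene's windows were found unchanged in a parent transcript. For 6 pseudogenes (RPL36AP37, RPS28P7, RPL21P16, RPL39P3, RPL41P1 and RPL41P5) every window was, and these had mean normalized counts of 66.4 to 3658. For 17 pseudogenes no window was found in the parent. Across the 148 genes the log2 mean normalized count and the share of windows found in the parent had a Pearson r of 0.617 and a Spearman rho of 0.571, a description over genes that share libraries and, in part, sequence. The sources used here do not say how reads that map to several places were counted, or whether strand was used, and each pseudogene count is uncertain to the extent that it shares sequence with the parent.

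After DTHIB, 79 of the 148 pseudogenes (53.4%) rose and 5 (3.38%) fell, at an adjusted p under 0.05 from limma over all 17194 tested genes, against a background of 31% of tested genes higher and 33.7% lower (64.6% either way). The median log2 fold change, DTHIB minus DMSO, was 0.34, with a range of -1.38 to 1.83, while over all tested genes it was -0.01. Of the pseudogenes called, 3 that rose were under 10 in every DMSO library and 1 that fell was under 10 in every DTHIB library. They passed the mean of 10 through the group where they are high. So did RPL32P20, which fell and was under 10 in DTHIB except in replicate 2. A positive fold change was found for 131 pseudogenes. All 4 DTHIB values lay above all 4 DMSO values for 64 pseudogenes and below them for 3, against 27.1% and 30.8% of tested genes. Leaving out DTHIB replicate 2 gave 78 higher and 6 lower. The number lower was 3 without any 1 of the 4 DMSO libraries and 2 without DTHIB replicate 4. Among their parents 52 of 53 tested rose and none fell, with a median of 0.33. RPS26 was the exception, at 0.05 ± 0.03 (SE; adjusted p = 0.103). The median of the pseudogenes was thus close to that of the parents, and their spread was wider.

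**Figure D1:**
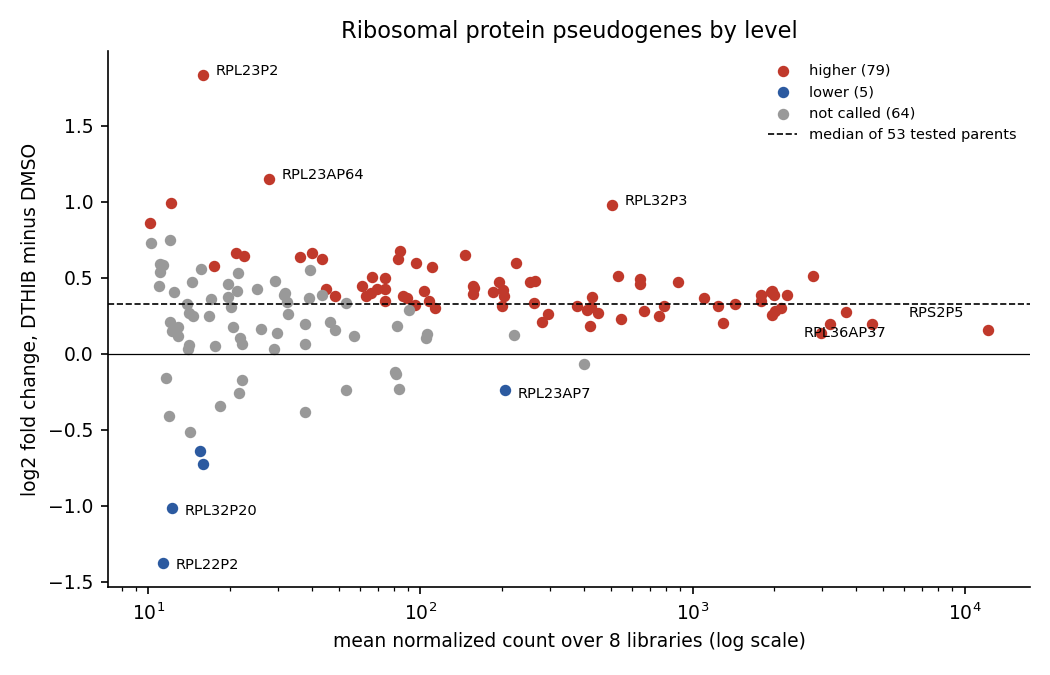
Log2 fold change, DTHIB minus DMSO, of the 148 ribosomal protein pseudogenes (points, coloured by limma's call at an adjusted p under 0.05) against the mean normalized count on a log axis; the dashed line is the median of 53 parents, 0.33. All 28 pseudogenes at 500 or more lie above 0, and the widest spread is at the low counts.

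The calls followed the level of the gene. At a mean normalized count of 500 or more all 28 pseudogenes rose, by 0.13 to 0.98 on the log2 scale. From 50 to under 500, 39 of 52 rose and 1 fell. From 10 to under 50, 12 of 68 rose (7 with quantile normalization, which gives every library the same distribution of values, or with no filter on low values) and 4 fell (1 without DTHIB replicate 4), and 45 of the 52 that were not called had a positive fold change. The 3 rises and 1 fall of genes under 10 in every library of 1 group, and the fall of RPL32P20, are in this class. The median fold changes of these 3 classes were close to each other, 0.32, 0.36 and 0.34, while the median SD among the DMSO libraries was 4.28% of the mean at 500 or more and 22.6% under 50. The calls also followed identity to the parent. Of 53 pseudogenes with an identity of 98% or more, 43 rose and none fell. Of 50 with 95 to under 98%, 22 rose and none fell. Of 45 under 95%, 14 rose and all 5 that fell were among them. Each count of 0 lower from limma in these classes, and likewise among the parents, the copies of RPL7A and the cytosolic ribosomal protein genes, was also 0 at an unadjusted p under 0.05, and 0 with edgeR and with DESeq2 on recovered reads. Level and identity moved together: the median mean normalized count was 419 in the first of these classes, 45.0 in the second and 22.5 in the third. Their separate parts were not tested.

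The summed normalized counts of all 148 pseudogenes were 61798, 60698, 62656 and 61534 in DMSO and 77475, 72315, 73964 and 77418 in DTHIB. Every DTHIB library lay above every DMSO library. As a share of all counted reads they made up 0.207 to 0.210% in DMSO and 0.254 to 0.271% in DTHIB. Set against the summed counts of the 54 parents, the pseudogenes stood at 5.79, 5.75, 5.76 and 5.75% in DMSO and at 5.75, 5.71, 5.64 and 5.82% in DTHIB, so on this ratio the groups overlapped. RPS2P5 alone supplied 18.5 to 18.8% of the pseudogene sum in DMSO and 16.8 to 17.5% in DTHIB. Without it the ratio was 4.68 to 4.70% in DMSO and 4.68 to 4.83% in DTHIB.

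**Figure D2:**
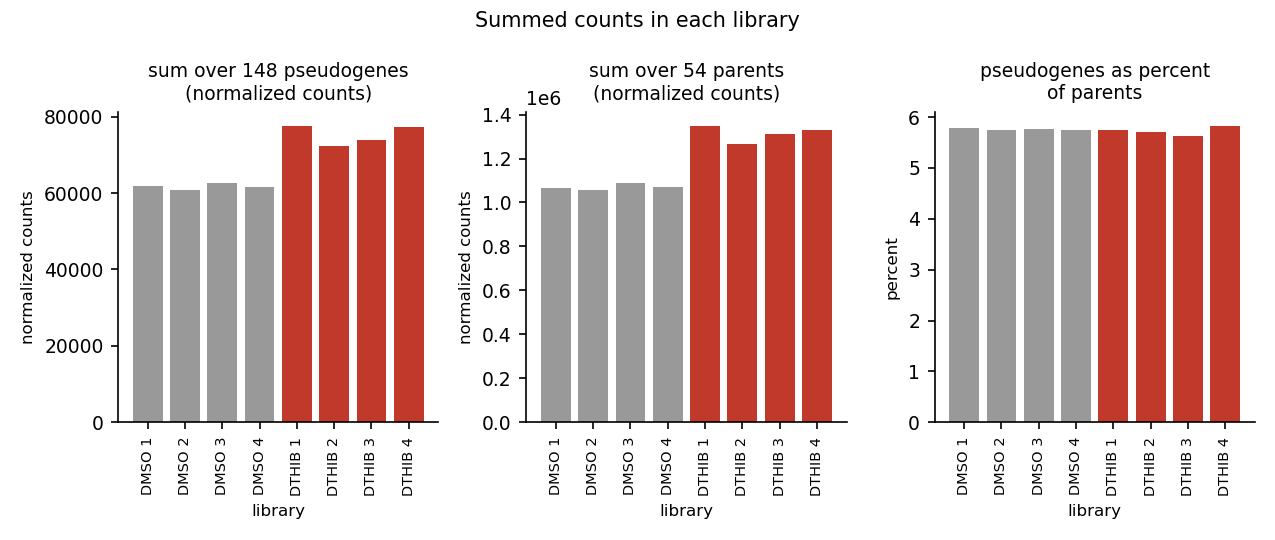
Bars give, for each of the 8 libraries, the summed normalized counts of the 148 pseudogenes, those of their 54 parents, and the first as a percent of the second; all axes start at 0. Both sums are higher in the 4 DTHIB libraries, and the percent stays between 5.64 and 5.82.

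The 8 pseudogenes with the highest mean normalized counts all rose. RPS2P5, a copy of the gene for a small subunit protein near the mRNA entry channel, had 11612, 11335, 11584 and 11476 in DMSO and 13544, 12154, 12517 and 13231 in DTHIB (normalized counts in the order of replicates 1 to 4, here and in all such series). The groups did not overlap. Its log2 fold change was 0.16 ± 0.03 (SE; adjusted p = 0.000382), beside 0.17 for RPS2, and the difference between them was -0.01 (95% interval -0.07 to 0.06; adjusted p = 0.874). Per kilobase of exon it stood at 54% of the parent in DMSO and 53.8% in DTHIB. Length was the union of all annotated exons of a gene, 879 bases for RPS2P5 and 2413 for RPS2. A longer parent raises such shares, here and below, above those of the counts. The mean normalized count of RPS2 in DMSO was 58470. TAOK3, around RPS2P5, rose by 0.48. RPS2P46, another copy of RPS2, had 2825, 2947, 2792 and 2777 in DMSO and 3419, 2885, 3242 and 2929 in DTHIB. Its highest DMSO value exceeded 2 of the DTHIB values, and its fold change of 0.13 ± 0.05 (SE; adjusted p = 0.0175) was no longer called without DTHIB replicate 1 (0.09, adjusted p = 0.0727) or replicate 3 (0.11, adjusted p = 0.052).

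Both leading copies of RPL7, the gene of a large subunit protein, rose. RPL7P1, with 3 substitutions from RPL7 over its whole length, had 4336, 4207, 4163 and 4274 in DMSO and 5001, 4666, 5090.3 and 4694 in DTHIB. RPL7P9, with 2, had 2992, 2903, 3077 and 2995 in DMSO and 3501, 3375, 3425 and 3386 in DTHIB. In neither did the groups overlap. Their log2 fold changes were 0.20 ± 0.03 (SE; adjusted p = 6.12e-05) and 0.19 ± 0.03 (SE; adjusted p = 2.29e-05), beside 0.25 for RPL7, and the differences from RPL7 were -0.05 (95% interval -0.12 to 0.02; adjusted p = 0.171) and -0.05 (95% interval -0.12 to 0.01; adjusted p = 0.147). Per kilobase they stood at 45.9% and 32.3% of RPL7 in DMSO. RPL7 has 2907 exonic bases against 747 in each copy. Its mean normalized count in DMSO was 36007, so in counts the shares were lower.

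RPS27P3, which differs from the small subunit gene RPS27 at 1 base and lies in an intron of TSPAN9 on the opposite strand, had 2147, 2369, 2317 and 2309.7 in DMSO and 3374, 2970.4, 2992 and 3733 in DTHIB. All DTHIB values were higher, with replicate 4 the highest, as was that of RPS27 itself (19961 against 18025 to 19286 in the other 3). The fold changes were 0.51 ± 0.06 (SE; adjusted p = 6.91e-07) for the copy and 0.47 for the parent, the largest rise among the 8 leading pseudogenes, and the copy differed from the parent by 0.04 (95% interval -0.07 to 0.15; adjusted p = 0.513). TSPAN9 fell over the same libraries, by 0.14 on the log2 scale. RPL3P4, a fragment matching 34.7% of the coding sequence of RPL3, whose protein lies close to the peptidyl transferase centre, had 1952, 1854, 1990.3 and 1897 in DMSO and 2478, 2371, 2475 and 2729.8 in DTHIB, a rise of 0.38 ± 0.04 (SE; adjusted p = 3.46e-07) beside 0.33 for RPL3. RPS28P7 had 1773, 1857, 2019 and 1929.9 in DMSO and 2396, 2347, 2293 and 2311 in DTHIB, a rise of 0.30 ± 0.04 (SE; adjusted p = 2.85e-06) beside 0.37 for RPS28. In RPL3P4 and RPS28P7 the groups did not overlap, and neither pair's difference passed the test (RPL3P4 0.06, 95% interval -0.03 to 0.15, adjusted p = 0.22; RPS28P7 -0.07, 95% interval -0.21 to 0.08, adjusted p = 0.436).

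RPL36AP37 was the only 1 of these 8 whose difference from the parent passed the test. With quantile normalization those of RPS2P5 (0.11), RPS2P46 (0.12), RPS27P3 (0.14, adjusted p = 0.0167) and RPL3P4 (0.20, adjusted p = 0.000639) did too. It lies in an intron of PLEKHA7 on the same strand, is identical to an RPL36A transcript over its whole length, and had 3314, 3183, 3418 and 3323 in DMSO and 4054, 3881, 3985 and 4106 in DTHIB, a rise of 0.28 ± 0.03 (SE; adjusted p = 6.76e-07) with no overlap. RPL36A, with 191, 159.8, 178 and 153 in DMSO and 298, 297, 307 and 279 in DTHIB, rose by 0.79 ± 0.08 (SE; adjusted p = 2.14e-07), the largest rise among the 53 tested parents. The difference, RPL36AP37 minus RPL36A, was -0.52 (95% interval -0.68 to -0.35; adjusted p = 2.88e-09). The sum of both was 3479.9 ± 105 normalized counts (SD, n = 4) in DMSO and 4302 ± 91.1 in DTHIB, a log2 ratio of 0.31, and the pseudogene made up 94% of that sum. PLEKHA7, its host, had a log2 fold change of -0.04 (adjusted p = 0.426).

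RPL36A was 1 of 4 parents whose pseudogenes were counted above the parent itself. Over the 8 libraries RPL36AP37 held 29367 reads against 1862 for RPL36A. The copies of RPL17, whose protein lines the peptide exit tunnel, held 22895 against 6838. Those of RPS10 held 5735 against 1674, and those of RPS18 8376 against 9. Among the copies of RPS10, whose mean normalized counts sum to 716, RPS10P7 had 531, with 1.82% of its windows found in RPS10. RPS18 itself was below the level for testing, at a mean normalized count of 1.12, and its 3 copies have no test against a parent. Other annotated genes overlapped 35.3% of the exon bases of RPL17, 39.4% of RPS10, 8.40% of RPL36A and 2.00% of RPS18, and of these the gene with the largest overlap (RPL17-C18orf32, RPS10-NUDT3, RPL36A-HNRNPH2 and VPS52) had a mean normalized count of 1.75, 0.125, 0.499 and 0.239. Copies and parent together gave higher sums in DTHIB in all 4 families, by a log2 ratio of 0.37 for RPL17, 0.47 for RPS10 and 0.44 for RPS18, with no test on the sums.

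Of the pseudogenes described next, RPL23P2, RPL13AP26 and RPS7P4 were under 10 in every DMSO library and reached the mean of 10 through the DTHIB values, so their rises are a description of genes admitted by the group where they are high. The largest rise of any pseudogene was that of RPL23P2, a diverged copy of RPL23, with 9.58, 6.70, 5.79 and 4.01 in DMSO and 19.8, 27.1, 31.0 and 22.9 in DTHIB. Every DTHIB value was above every DMSO value. Its log2 fold change was 1.83 ± 0.28 (SE; adjusted p = 2.36e-05), beside 0.39 for RPL23, and the difference was 1.44 (95% interval 0.83 to 2.06; adjusted p = 0.00025). Per kilobase it stood at 0.417% of RPL23 in DMSO and 1.23% in DTHIB, and 2.69% of its windows were found in RPL23. RPL23AP64, a copy of RPL23A (the protein at the tunnel exit where signal recognition particle docks), had 14.4, 13.4, 23.2 and 17.0 in DMSO and 37.5, 42.7, 30.0 and 43.9 in DTHIB, with no overlap. It rose by 1.15 ± 0.22 (SE; adjusted p = 0.000186) beside 0.21 for RPL23A, a difference of 0.94 (95% interval 0.47 to 1.40; adjusted p = 0.0011). CENATAC, the gene around it on the opposite strand, rose by 0.60.

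RPL32P3 showed the largest rise among the 28 pseudogenes at 500 or more, with 344, 353, 325 and 335 in DMSO and 642, 793, 604 and 651 in DTHIB. DTHIB replicate 2 was the highest, and all DTHIB values were higher than all DMSO values. The rise was 0.98 ± 0.07 (SE; adjusted p = 2.92e-09), beside 0.36 for RPL32, with a difference of 0.62 (95% interval 0.45 to 0.79; adjusted p = 1.32e-06). None of its windows was found in RPL32 and 0.0431% in any other annotated transcript, so a read of that length matches no other annotated transcript almost anywhere along it. IFT122P2, a pseudogene that overlaps its exons on the opposite strand, rose by 0.96. If the counting did not use strand, reads from the stretch that both share cannot be told apart. The windows were searched on both strands, so that stretch is a small part of RPL32P3.

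The other large rises were at low counts. RPL18P13 had 51.7, 59.3, 79.1 and 68.1 in DMSO and 104, 104, 87.9 and 116 in DTHIB, a rise of 0.68 ± 0.14 (SE; adjusted p = 0.000483) with no overlap; its difference from RPL18 was 0.41 (95% interval 0.11 to 0.71; adjusted p = 0.0162) and no longer called without DMSO replicate 1 (0.32, adjusted p = 0.0589) or DTHIB replicate 4 (0.35, adjusted p = 0.059), or with quantile normalization (0.28, adjusted p = 0.0866). RPL13AP26, a copy of the gene of a protein also known from translational control by the GAIT complex, had 4.79, 8.61, 8.68 and 9.02 in DMSO and 15.6, 19.8, 12.0 and 18.0 in DTHIB and rose by 0.99 ± 0.29 (SE; adjusted p = 0.00598). It lies inside DUSP18 on the same strand and overlaps an exon of it. DUSP18 had a mean normalized count of 86.1 and a log2 fold change of 0.08 (adjusted p = 0.594). Reads from the stretch that both share cannot be told apart from the counts. SLC35E4, in whose intron RPL13AP26 lies on the opposite strand, fell by 0.46 on the log2 scale. RPS7P4 had 8.62, 4.78, 9.65 and 5.01 in DMSO and 13.5, 17.7, 9.99 and 12.0 in DTHIB and rose by 0.86 ± 0.31 (SE; adjusted p = 0.0234), a call lost without DMSO replicate 2 (0.72, adjusted p = 0.0653), DMSO replicate 4 (0.74, adjusted p = 0.063) or DTHIB replicate 2 (0.72, adjusted p = 0.0807), with no filter (adjusted p = 0.0742), with quantile normalization (adjusted p = 0.0523) and with DESeq2 on recovered reads (adjusted p = 0.077). In RPL13AP26 and RPS7P4 the groups did not overlap.

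RPS3AP5 had 16.3, 43.1, 32.8 and 35.1 in DMSO and 41.7, 45.9, 53.9 and 51.9 in DTHIB, and its groups overlapped. The rise of 0.66 ± 0.24 (SE; adjusted p = 0.0214) fell short of the threshold without DMSO replicate 1 (0.38, adjusted p = 0.0754), its lowest value, and without DTHIB replicate 3 (0.61, adjusted p = 0.0535) or 4 (0.63, adjusted p = 0.0535), and with quantile normalization (0.55, adjusted p = 0.0576). RPS6P25, a copy of the gene of the S6 kinase substrate RPS6 in an intron of GCDH, had 17.2, 19.1, 14.5 and 13.0 in DMSO and 21.9, 35.4, 23.0 and 23.9 in DTHIB. Its groups did not overlap, and the rise of 0.66 ± 0.23 (SE; adjusted p = 0.0174) was not called without DTHIB replicate 2 (0.51, adjusted p = 0.0741) or with no filter (adjusted p = 0.0541). The difference from the parent did not pass the test for RPL13AP26 (0.66, 95% interval 0.03 to 1.29, adjusted p = 0.057), RPS7P4 (0.52, 95% interval -0.16 to 1.20, adjusted p = 0.162), RPS3AP5 (0.28, 95% interval -0.22 to 0.78, adjusted p = 0.303) and RPS6P25 (0.23, 95% interval -0.26 to 0.71, adjusted p = 0.388).

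All 5 pseudogenes that fell are copies of large subunit genes whose parents rose. RPL22P2 had 17.2, 20.1, 17.4 and 12.0 in DMSO and 8.34, 5.21, 5.99 and 3.99 in DTHIB, with every DTHIB value under every DMSO value. It was under 10 in every DTHIB library and reached the mean of 10 through its DMSO values, so its fall is likewise a description of a gene admitted by the group where it is high. Its log2 fold change was -1.38 ± 0.30 (SE; adjusted p = 0.000646), beside 0.24 for RPL22, whose protein is not essential for translation but is needed in T-cell development. The difference was -1.61 (95% interval -2.24 to -0.98; adjusted p = 0.000136). RPL23AP7, the most strongly counted of the 5, had 226, 219, 220.0 and 221 in DMSO and 175, 194, 194 and 189 in DTHIB, with no overlap, and fell by 0.24 on the log2 scale (adjusted p = 0.00889) beside a rise of 0.21 for RPL23A. It is annotated as transcribed, with 2128 exonic bases; 0.152% of its windows were found in RPL23A and 69.6% in some other annotated transcript.

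RPL39P16, a copy of the gene of a small protein of the exit tunnel, had 23.9, 23.9, 15.4 and 17.0 in DMSO and 12.5, 13.5, 13.0 and 7.98 in DTHIB, with no overlap, and a log2 fold change of -0.73 ± 0.26 (SE; adjusted p = 0.0209). CCDC138, in whose intron it lies on the same strand, fell by 0.76 on that scale, and RPL39 rose by 0.35. The call for RPL39P16 was lost without DMSO replicate 1 (-0.64, adjusted p = 0.0668), DMSO replicate 2 (-0.64, adjusted p = 0.0646) or DTHIB replicate 4 (-0.56, adjusted p = 0.0695), with no filter (adjusted p = 0.0674) and with DESeq2 on recovered reads (adjusted p = 0.0694). RPL32P20 had 19.2, 8.61, 20.3 and 18.0 in DMSO and 8.34, 10.4, 9.99 and 2.99 in DTHIB, where DMSO replicate 2 lay among the DTHIB values. Under 10 in DTHIB except in replicate 2, it reached the mean of 10 through its DMSO values. That fall is likewise a description of a gene admitted by the group where it is high. The log2 fold change of RPL32P20 was -1.02 ± 0.37 (SE; adjusted p = 0.0226). That call was lost without DMSO replicate 1 (-0.93, adjusted p = 0.0612), 3 (-0.90, adjusted p = 0.0666) or 4 (-0.95, adjusted p = 0.055) and without DTHIB replicate 4 (-0.67, adjusted p = 0.0837).

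RPL12P14, a copy of the gene of a protein at the base of the ribosomal stalk, had 14.4, 20.1, 19.3 and 22.0 in DMSO and 8.34, 15.6, 14.0 and 9.97 in DTHIB, with 1 DTHIB value above the lowest DMSO value. Its log2 fold change of -0.64 ± 0.26 (SE; adjusted p = 0.0401) had the highest adjusted p of these 5 calls. It was lost without DMSO replicate 2 (-0.61, adjusted p = 0.0823), 3 (-0.63, adjusted p = 0.0767) or 4 (-0.57, adjusted p = 0.103) and without DTHIB replicate 1 (-0.50, adjusted p = 0.114) or 4 (-0.57, adjusted p = 0.0907), with no filter (adjusted p = 0.116) and with DESeq2 on recovered reads (adjusted p = 0.131). The differences from the parent passed the test for RPL39P16 (-1.08, 95% interval -1.65 to -0.50, adjusted p = 0.0005), RPL32P20 (-1.38, 95% interval -2.16 to -0.60, adjusted p = 0.00265), RPL12P14 (-0.99, 95% interval -1.56 to -0.42, adjusted p = 0.00325) and RPL23AP7 (-0.45, 95% interval -0.63 to -0.28, adjusted p = 8.39e-05), and no left-out library changed these 4 or that of RPL22P2.

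Each pseudogene was then compared with its parent within the same library, as the difference of their log2 values. Of 145 pairs, 10 pseudogenes lay above the parent and 13 below, together 15.9%, against 70.2% of gene and parent pairs when every tested gene was set against these parents (11.3% above, 59% below). RPL23P2, above, and RPL22P2 and RPL32P20, below, had passed the mean of 10 through the group where they are high. The median difference was 0.03 and the median of its size 0.13, and 93 of the 145 pairs lay within 0.2 of 0. The 95% interval of the difference was wholly within 0.2 of 0 for 22 pairs and included 0 for 120. Without DTHIB replicate 4, 5 pairs lay above the parent, and with quantile normalization 18 lay above and 18 below. Across the 145 pairs the fold changes of pseudogene and parent had a Pearson r of 0.108 and a Spearman rho of 0.163, and across the 27 pairs at a mean of 500 or more 0.268 and 0.491; the points share libraries, parents and, in part, reads.

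**Figure D3:**
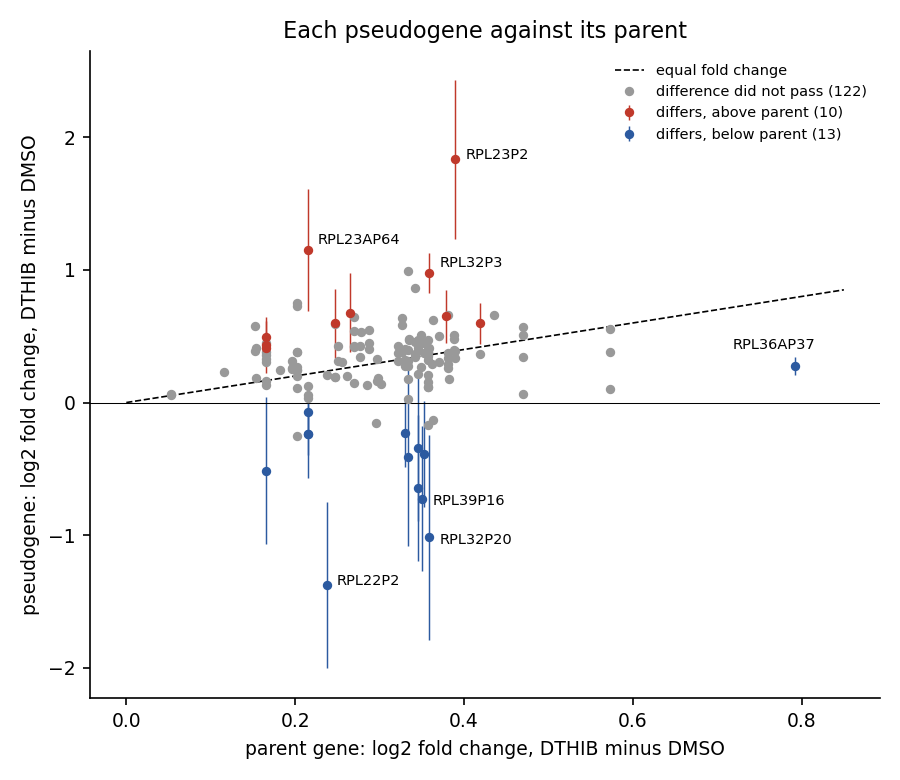
Log2 fold change of each pseudogene (vertical) against that of its parent (horizontal) for 145 pairs, coloured by the test of the difference; bars are 95% intervals of the pseudogene's fold change, drawn for the 23 pairs that differ, and the dashed line marks equal change. Most points gather near the line, RPL23P2 stands highest and RPL22P2 lowest, and RPL36AP37 is far to the right.

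The share of pairs that differed varied with identity, and these counts depended on the normalization. Under 95% identity 15 of 45 pairs (33.3%) differed, 4 above and 11 below. From 95 to under 98% 3 of 48 did, and at 98% or more 5 of 52, 4 above and 1 below. Among the 17 pseudogenes with no window in the parent 8 differed (47.1%), and among the 42 with 50% or more of their windows there, 5 (11.9%). Of the 27 pairs at 500 or more 4 differed, and 23 had a difference within 0.2 of 0. Among copies of small subunit genes 1 of 39 pairs differed, and among those of large subunit genes 22 of 106. With quantile normalization 15 of 45 pairs differed under 95% identity, 4 of 48 from 95 to under 98% and 17 of 52 at 98% or more. The shares of the most diverged and the closest copies were then nearly equal. It also gave 16 of the 27 pairs at 500 or more, 15 of them above the parent, 13 of the 42 with 50% or more of their windows in the parent, 4 of 39 for small subunit genes and 32 of 106 for large. Of the 3 pairs from 95 to under 98%, 1 differed without DMSO replicate 1, 3 or 4 or DTHIB replicate 4, and the 1 small subunit pair was lost without DMSO replicate 4 or DTHIB replicate 4. Without DTHIB replicate 4, 3 differed at 98% or more and 3 among those with 50% or more of their windows in the parent. These shares were not tested against each other.

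**Figure D4:**
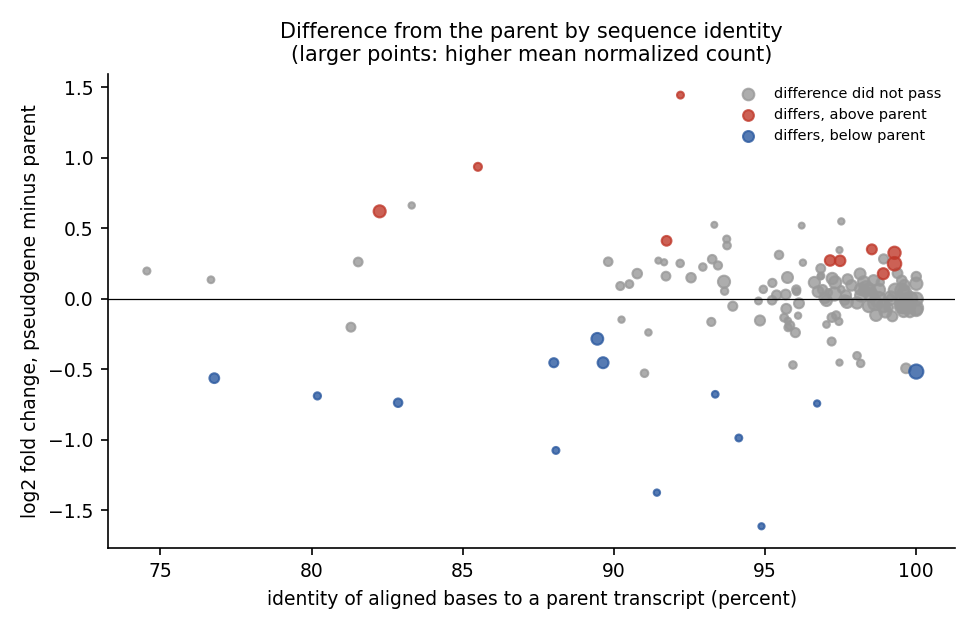
Difference in log2 fold change, pseudogene minus parent, against the identity of aligned bases for 145 pairs; larger points have a higher mean normalized count, and colours give the test of the difference. The median size of the difference is 0.07 at 98% or more, where RPL36AP37 lies lowest at -0.52, and 0.26 under 95%.

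All 10 pseudogenes above their parent rose, as did their parents, by less. After RPL23P2, RPL23AP64, RPL32P3 and RPL18P13 came RPL7P23, in an intron of WDR41 on the opposite strand, with 77.6, 83.3, 71.4 and 73.1 in DMSO and 116, 93.8, 127 and 131 in DTHIB. It rose by 0.60 ± 0.12 (SE; adjusted p = 0.000413) with no overlap, beside 0.25 for RPL7 and 0.20 and 0.19 for its copies RPL7P1 and RPL7P9. Its difference from RPL7 was 0.35 (95% interval 0.09 to 0.61; adjusted p = 0.0164), lost without DTHIB replicate 3 (0.31, adjusted p = 0.0517) or 4 (0.30, adjusted p = 0.0611), or with quantile normalization (0.26, adjusted p = 0.0646). RPL17P6 had 549.7, 541, 526 and 518 in DMSO and 778, 665, 738 and 829 in DTHIB, a rise of 0.49 ± 0.06 (SE; adjusted p = 1.66e-06) with no overlap, beside 0.17 for RPL17 (818, 791, 781 and 819.7 in DMSO and 922, 939, 903 and 838 in DTHIB). RPL17P6 lay above RPL17 by 0.33 (95% interval 0.17 to 0.48; adjusted p = 0.000208). RPL17P7 (0.41) and RPL17P18 (0.43) also lay above it, and all 3 lie in introns, on the opposite strand, of genes that fell: PIGK, WDR47 and LRCH3. RPL17P7 and RPL17P18 were named after their values were seen, and 33.7% of all tested genes were lower. Hosts of other copies of RPL17, such as THSD4 around RPL17P39, are not described here.

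Of the 13 pseudogenes below their parent, 1 rose (RPL36AP37), 5 fell and 7 were not called. Among them 8 had a mean under 50 and 6 were annotated as transcribed. RPL26P30, whose parent by symbol is RPL26, had 0% of its windows found in RPL26 and 31% in some other annotated transcript. Whether it arose from RPL26 or from another gene was not tested. RPL26P30 had 35.4, 45.0, 40.5 and 49.1 in DMSO and 30.2, 40.6, 24.0 and 35.9 in DTHIB, and the groups overlapped. Its log2 fold change was -0.39 ± 0.19 (SE; adjusted p = 0.0842), called without DTHIB replicate 2 (-0.50, adjusted p = 0.0371) or with quantile normalization (-0.50, adjusted p = 0.0249), and its difference from RPL26, which rose by 0.35, was -0.74 (95% interval -1.14 to -0.34; adjusted p = 0.00128). RPL13AP20 had 17.2, 8.61, 16.4 and 12.0 in DMSO and 9.38, 6.25, 8.99 and 16.0 in DTHIB, overlapping, at -0.41 ± 0.32 (SE; adjusted p = 0.268). Its difference from RPL13A, -0.74 (95% interval -1.41 to -0.08; adjusted p = 0.0438), was lost without any 1 library other than DMSO replicate 2 and DTHIB replicate 4 (lowest and highest of these, -0.78 and -0.59; adjusted p = 0.0586 and 0.11), and with no filter (adjusted p = 0.112).

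The 16 pseudogenes annotated as transcribed, meaning that evidence of an RNA of their own is on record, had 5 that rose, 1 that fell and 10 not called. Of their 15 pairs 7 differed from the parent (46.7%), against 16 of 130 among the others, or 8 and 28 with quantile normalization. Several sat well below parents that rose: RPL23AP7, RPL23AP82 (-0.07) and RPL23AP53 (-0.24) beside 0.21 for RPL23A, RPL13P5 (-0.23) beside 0.33 for RPL13, RPL12P25 (-0.34) beside 0.35 for RPL12, and RPL26P30. Their identity to the parent had a median of 89.7% and their share of windows in it a median of 0.114%. RPL6P27 and RPS10P7, by contrast, rose by 0.26 and 0.51 beside 0.20 for RPL6 and 0.39 for RPS10. RPL23AP82, RPL23AP53, RPL13P5, RPL12P25, RPL6P27 and RPS10P7 were named after their values were seen. In RPL23AP7 69.6% of windows, and in RPL23AP53 26.2%, were found in some other annotated transcript, against 0.152% and 0% in RPL23A. Whether the copies of RPL23A share reads with each other was not tested, so they may not be separate cases.

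RPL7A, a large subunit gene, had the most pseudogenes. Of its 11 copies 6 rose and none fell, and in all 11 the 95% interval of the fold change held the parent's 0.36. With quantile normalization 3 of the 11 rose, and with DESeq2 on recovered reads 4. RPL7AP62 (adjusted p = 0.0819), RPL7AP66 (adjusted p = 0.102) and RPL7AP50 (adjusted p = 0.14) were lost with the first, and RPL7AP66 (adjusted p = 0.0629) and RPL7AP50 (adjusted p = 0.0702) with the second. RPL7AP6 led, with 1677, 1777, 1764 and 1697 in DMSO and 2282, 2145, 2176 and 2431 in DTHIB, a rise of 0.38 ± 0.04 (SE; adjusted p = 2.81e-07) and a difference from RPL7A of 0.03 (95% interval -0.07 to 0.12; adjusted p = 0.588), called with quantile normalization (0.13, adjusted p = 0.0126). Its first 120 coding bases are identical to those of RPL7A. Per kilobase it stood at 10.6% of RPL7A in DMSO and 10.8% in DTHIB, while the other 10 stood at 0.0695 to 1.3% in DMSO.

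RPL7AP30 had 205, 228, 195 and 216 in DMSO and 287, 254, 282 and 357 in DTHIB, RPL7AP70 170.5, 168, 153 and 136 in DMSO and 252, 156, 223 and 212 in DTHIB, and RPL7AP62 81.4, 82.3, 83.0 and 93.2 in DMSO and 114, 109, 107 and 96.7 in DTHIB. Groups overlapped in RPL7AP70, where DTHIB replicate 2 lay among the DMSO values, and not in the other 2. The rises were 0.47 ± 0.09 (SE; adjusted p = 0.000296), 0.41 ± 0.12 (SE; adjusted p = 0.00816) and 0.32 ± 0.11 (SE; adjusted p = 0.0142). RPL7AP66 (DMSO 52.1 to 70.4, DTHIB 79.8 to 86.5) rose by 0.35 ± 0.13 (SE; adjusted p = 0.0264), lost without DMSO replicate 4 (0.24, adjusted p = 0.0985) or DTHIB replicate 1 (0.33, adjusted p = 0.058) or 3 (0.34, adjusted p = 0.0523). RPL7AP50 (DMSO 45.0 to 68.1, DTHIB 60.5 to 81.9) rose by 0.38 ± 0.16 (SE; adjusted p = 0.0432), a call lost without DMSO replicate 1 or 2 or DTHIB replicate 1, 3 or 4, for example at 0.30, adjusted p = 0.133 without DMSO replicate 1.

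The 5 copies that were not called had the lowest mean normalized counts of the family: RPL7AP11 at 0.12 ± 0.13 (SE; adjusted p = 0.454), RPL7AP45 at 0.16 ± 0.17 (SE; adjusted p = 0.446), RPL7AP39 at -0.17 ± 0.25 (SE; adjusted p = 0.566), RPL7AP43 at 0.12 ± 0.29 (SE; adjusted p = 0.735) and RPL7AP16 at 0.21 ± 0.37 (SE; adjusted p = 0.636). The difference of RPL7AP39 from RPL7A was not called, but was called below the parent with a pseudocount of 5 (-0.50, adjusted p = 0.0477), with quantile normalization (-0.65, adjusted p = 0.0258), without DMSO replicate 1 (-0.69, adjusted p = 0.0312) and without DTHIB replicate 4 (-0.68, adjusted p = 0.0362). That of RPL7AP11 was called below with quantile normalization (-0.33, adjusted p = 0.0321). RPL7AP39 lies inside FAM185A (mean normalized count 473, log2 fold change -0.09, adjusted p = 0.19) on the same strand and overlaps an exon of it. Several copies lie in genes that fell. RPL7AP11 lies in an intron of POLQ, a DNA polymerase gene that fell, with a log2 fold change of -1.304, and RPL7AP62 in an intron of SEMA6D, which fell by 0.74, both on the opposite strand. RPL7AP66 lies on the same strand in an intron of MIR924HG, which fell by 0.94. Of all tested genes 33.7% were lower. Not described here are the genes around RPL7AP16 (GPBP1L1), RPL7AP43 (FAM185BP), RPL7AP50 (AC022387.1) and RPL7AP70 (GNB1L).

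**Figure D5:**
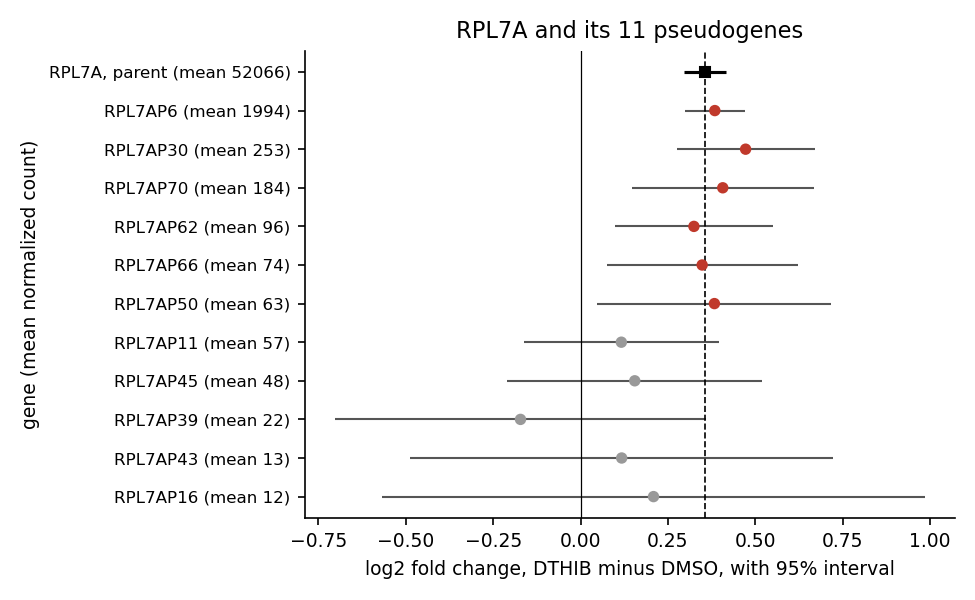
Log2 fold change with its 95% interval for RPL7A (square) and its 11 pseudogenes (circles, red where called higher, grey where not called), ordered by mean normalized count; the dashed line is RPL7A at 0.36. The 6 copies with the most counts lie near the line, and all 11 intervals of the fold change include it; the within-library difference of RPL7AP39 from RPL7A was called below in 4 alternatives.

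Position within other genes was examined across all pseudogenes. Of the 148, 66 overlapped no annotated gene, and 63 overlapped a tested gene, 17 in an intron on the same strand, 38 in an intron on the opposite strand, 2 with exons on the same strand and 6 with exons on the opposite strand, taking for each pseudogene the overlapping gene with the highest mean. Over every tested gene that overlaps them, 7 pseudogenes overlapped more than 1 such gene, and 4 lay on exons of a gene on the same strand: RPL7AP39, RPL13P5, RPL13AP26 and RPS4XP16, the last named after its values were seen. Reads from the stretch that each of these 4 shares with such a gene cannot be told apart from the counts. Of the windows, 62.4% in RPL7AP39, 32.5% in RPL13P5, 20.6% in RPL13AP26 and 22.4% in RPS4XP16 were found in some other annotated transcript. The remaining windows matched no other annotated transcript. Among the 25 whose host fell, 14 rose and 1, RPL39P16, fell. Where the host rose 9 of 16 rose, and where it was not called 14 of 22. Fold changes of pseudogene and host had a Pearson r of 0.122 and a Spearman rho of 0.100 over 63 pairs, which share libraries. Of the 66 outside any annotated gene 33 rose and 4 fell.

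The rest of the ribosomal protein genes gives the background for these values. Of 80 listed cytosolic ribosomal protein genes 77 were tested, 73 rose and none fell, with a median log2 fold change of 0.31. Of 8 ribosomal protein paralogs 7 were tested, 2 rose and 1 fell, with a median of 0.11. Other annotated pseudogenes named for a tested parent were 620, of which 133 rose (21.5%) and 114 fell (18.4%), with a median of -0.01, while 79 of their 416 parents rose and 248 fell, with a median of -0.16. Within 0.2 of the parent lay 312 of these 620 (50.3%), against 93 of 145 ribosomal protein pairs, and the median size of the difference was 0.20 against 0.13. The ribosomal pseudogenes had more counts, at a median mean of 66.0 against 36.9, and these shares were not tested against each other.

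The lower limit of 10 cut through a continuous range. Just inside it were RPL31P4 at 10.9, RPL21P83 at 10.2 and RPS7P4 at 10.2, and just outside RPL21P11 at 9.90, RPL15P7 at 9.85 and RPL7AP31 at 9.74. RPL31P4 had 12.5, 14.4, 4.82 and 6.01 in DMSO and 14.6, 7.30, 14.0 and 14.0 in DTHIB and RPL21P83 12.5, 3.83, 7.72 and 7.01 in DMSO and 10.4, 15.6, 11.0 and 14.0 in DTHIB, and in both the groups overlapped. Neither fold change passed the test (RPL31P4 0.45 ± 0.35 (SE), adjusted p = 0.282; RPL21P83 0.73 ± 0.33 (SE), adjusted p = 0.0624), although that of RPL21P83 did without DMSO replicate 1 (0.96, adjusted p = 0.0204). In the authors' deposited table (Wald test) most of the falls called here did not pass an adjusted p of 0.05. These were RPL23AP7 (0.0517), RPL32P20 (0.0517), RPL39P16 (0.0902) and RPL12P14 (0.165), while RPL22P2 passed (0.00397). Of the rises called here and described for single pseudogenes, RPS7P4 (0.1133), RPS6P25 (0.0762), RPL7AP62 (0.07), RPL7AP66 (0.1065) and RPL7AP50 (0.1174) did not pass there. The others passed, among them RPL32P3 and RPS2P5, at 1.91e-30 and 5.14e-06.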

How the data were processed

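Libraries of poly(A) RNA from C4-2 cells, 4 treated for 48 h with DTHIB at 1 µM and 4 with the solvent, were grouped by their treatment labels. The submitters' processing notes name the build GRCh38 and the tools DESeq2 (2.11.40.2), featureCounts (1.6.3), HISAT2 (2.1.0), Trimmomatic (0.36.5) and StringTie (1.3.4); their settings, the annotation, strand use and the handling of multi-mapping reads are not stated there. The signal deposited by the authors is, by its name, a DESeq2-normalized count per gene and library, which is reads divided by a size factor. The authors also deposited a table that gives, per gene, the mean of that signal, a Wald score, the p-value, the adjusted p-value and a log2 fold change with standard error. Values in a library were whole multiples of a common step (100% of them, tolerance 0.01), and the whole reads obtained from it served for library totals and count tests.

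Differences between groups were tested on log2(normalized count + 1) with limma (3.58.1, R 4.3.3; lmFit and eBayes with trend), two-sided and without covariates, over the 17194 genes with a mean of at least 10. Adjusted p-values are Benjamini-Hochberg values over all of these genes and come from limma where no other tool is given. Fold changes on this scale understate the change of low genes. Differences from a parent were fitted on the log2 value of every tested gene minus that of the parent, 1 fit per parent, and adjusted over all tested genes of that fit. Both fits were tested on simulated data. Symbols were matched for 41967 of 58884 identifiers and GENCODE release 29 positions for 58611. Pseudogene transcripts were aligned locally to parent transcripts (match 2, mismatch -3, gap opening -5, extension -2). No pair of libraries agreed within sampling noise: chi-square per gene was 2.39 to 5.20 within groups.

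Named members were the 8 highest means, the 8 largest rises and falls among those called, the 6 largest differences from the parent each way, the 3 on each side of the limit, all copies of the parent with the most, and their parents and hosts, with KLK3 as a check of the line. The members, lists and tests were chosen with earlier results of these data known. Alternatives tried were other pseudocounts (0.5, 5), other filters (none, a mean of 50), TMM, quantile normalization, a replicate block, leaving out each library, and the count tests of edgeR (4.0.16) and DESeq2 (1.42.0).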

Additional observations from a re-analysis of the deposited data

Results flagged for a closer look

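In 120 groups of 4 libraries, 7 held a value that stood apart from the other 3 by Dixon's criterion at the 95% level (the gap to the nearest value, divided by the range); chance gives about 1 in 20. RPL13AP26 was lowest in DMSO replicate 1, at 4.79 normalized counts against 8.61 to 9.02 in the others. RPS6P25 was highest in DTHIB replicate 2, at 35.4 against 21.9 to 23.9, and RPL31P4 was lowest there, at 7.30 against 14.0 to 14.6. RPL7AP62 was highest in DMSO replicate 4, at 93.2 against 81.4 to 83.0, where RPL7AP66 was lowest, at 52.1 against 69.0 to 70.4. The parents RPL13A and RPL12 were lowest in DTHIB replicate 2, at 50161 against 54696 to 55610 and at 24603 against 26311 to 26650.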

How the results depend on the processing

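The number of pseudogenes higher stayed between 66 and 84 under every alternative run (quantile normalization 66, edgeR 84, DESeq2 73), at 73 to 78 with 1 library left out, and no called pseudogene was called the other way. The number lower, 5, was 3 with no filter, 1 at a mean of at least 50, where 80 pseudogenes were tested, 8 with quantile normalization, 3 with DESeq2, and 2 to 6 with 1 library left out. Parents higher were 52 or 53 with 1 library left out and 53 with quantile normalization. Pairs above the parent, 10, were 18 with quantile normalization and 5 to 11 with 1 library left out; pairs below, 13, were 5 at a mean of at least 50 and 10 to 13 with 1 library left out. The difference from RPS2 changed sign with quantile normalization and passed the test, at 0.11 for RPS2P5 (limma, adjusted p = 0.00447) and 0.12 for RPS2P46 (adjusted p = 0.0168); the cause was not tested. Among pairs at a mean of 500 or more, 16 of 27 differed with quantile normalization against 4. Of the values of single named genes and pairs, 57 fell below the threshold under an alternative, 12 came to pass it and 1483 kept their call. Replicate numbers did not pair the libraries (same-numbered deviations correlated at -0.07 to 0.01); with a replicate block 80 pseudogenes were higher and 5 lower, and 9 pairs lay above and 14 below the parent. Depth limits the pseudogenes near a mean of 10.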
